A study of Mus musculus with 8 samples.

Results

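Interferon-stimulated genes (ISGs) are the genes that cells switch on when an interferon binds its receptor. A list of 40 ISGs was followed here in Lewis lung carcinoma (LLC) cells, a mouse lung carcinoma line, grown in culture with no interferon among the listed treatments. The list was set by gene symbol, each symbol was matched to its Ensembl identifier in the GENCODE annotation of mouse genome build GRCm38 (mm10), and all 40 were found among the 55487 genes of the count table. Of these, 31 had enough reads to pass edgeR's expression filter, among 14228 genes tested in all. The remaining 9 ISGs (Oas1a, Oas2, Mx1, Mx2, Gbp3, Rsad2, Cmpk2, Ifi44 and Ddx60) had too few reads for the test.

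RNA sequencing was performed on 4 libraries of wild-type LLC cells and 4 libraries of LLC cells knocked out for Ago2 (ΔAgo2), labelled as biological replicates of each genotype and all as batch 1. Cells of both genotypes were grown in DMEM with fetal bovine serum of embryonic stem cell grade, and no drug, cytokine or virus is named. According to the study's methods, ΔAgo2 cells were made by infection with a lentivirus that carries Cas9 and a guide RNA against Ago2, followed by puromycin selection, and clones were sorted. It is not stated which clone was sequenced or whether the wild-type cells went through infection and sorting, so a difference between the genotypes cannot be told apart from a difference between clones. The labels do not say whether replicates came from separate thaws or platings, so the p-values measure the spread between these libraries.

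Type I interferons bind the receptor formed by Ifnar1 and Ifnar2, the kinases Jak1 and Tyk2 then phosphorylate STAT proteins such as Stat2, which enter the nucleus with Irf9. The complex binds the interferon-stimulated response element (ISRE), whose core repeats the letters GAAA, and interferon gamma acts through a different element named GAS. Some ISGs are also read at a low level when no interferon is present, and cells keep part of the response as a constant guard against viruses. ISG products act at many steps of infection, from entry to the release of virus. Ago2 is the Argonaute protein that cuts RNA targets matched by small RNAs, and the comparison asks what its loss does to these genes in the tumor cells themselves, away from the immune cells of a tumor.

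The promoters of the list were searched for both elements named above. RefSeq promoter windows of build GRCm38.p6, which run from 250 bases before to 50 bases after each gene's start, were given for 31 of the 40 ISGs. The ISRE core, taken as GAAA, then any 2 bases, then GAAA again, and searched on both strands with matches free to overlap, occurred in 15 of the 31 windows (48.4%), against 3.99% of 27025 mouse gene windows. The GAS core TTCNNNGAA occurred in 7 of the 31 (22.6%), against 9.55% of all windows. The stretches before the start that hold the ISRE core in 10 ISGs are shown 5′ to 3′ along the gene's strand, because these genes span the range of levels reported here from Bst2 down to Ddx60. Capitals mark the bases covered by the ISRE core or, where it lies on the opposite strand, by its reverse complement (TTTC, any 2 bases, TTTC).

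Isg15 (chr4:156200850-156200921, minus strand): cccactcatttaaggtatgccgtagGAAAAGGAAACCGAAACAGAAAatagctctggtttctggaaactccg
Ifit1 (chr19:34640760-34640838, plus strand): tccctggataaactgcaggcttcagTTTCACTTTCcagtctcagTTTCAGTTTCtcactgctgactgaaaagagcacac
Ifit3 (chr19:34583348-34583441, plus strand): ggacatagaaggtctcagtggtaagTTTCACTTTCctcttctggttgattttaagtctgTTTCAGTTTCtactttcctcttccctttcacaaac
Oas1a (chr5:120907526-120907570, minus strand): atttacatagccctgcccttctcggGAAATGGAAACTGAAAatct
Oas3 (chr5:120777700-120777759, minus strand): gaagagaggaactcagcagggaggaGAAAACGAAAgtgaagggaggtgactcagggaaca
Gbp7 (chr3:142530258-142530317, plus strand): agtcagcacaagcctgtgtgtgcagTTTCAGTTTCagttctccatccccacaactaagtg
Bst2 (chr8:71537562-71537627, minus strand): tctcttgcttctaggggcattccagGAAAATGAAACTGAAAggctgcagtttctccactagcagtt
Trim30a (chr7:104465195-104465254, minus strand): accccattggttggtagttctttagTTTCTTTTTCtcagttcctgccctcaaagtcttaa
Rsad2 (chr12:26456538-26456597, minus strand): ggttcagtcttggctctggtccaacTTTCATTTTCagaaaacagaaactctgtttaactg
Ddx60 (chr8:61928009-61928086, plus strand): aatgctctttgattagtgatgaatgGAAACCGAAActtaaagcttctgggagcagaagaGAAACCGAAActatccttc

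The matches of Isg15 overlap each other, with 3 in 1 run of capitals, and those of Oas1a and Bst2 overlap in the same way with 2 each. In Ifit1, Ifit3 and Ddx60 the 2 matches lie apart. No window was given for Usp18, Oas2, Mx1, Mx2, Gbp4, Parp9, Parp14, Ifi27 and Rtp4. A match of letters describes the sequence and does not show that a factor binds there.

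The wild-type libraries held 40740643 to 68530912 counts each, and the ΔAgo2 libraries 39628101 to 57595675. For Ago2 itself, wild-type libraries held 3842 to 34965 counts and ΔAgo2 libraries 12319 to 23871 (log2 fold change 0.21, SE 0.40, adjusted p = 0.908 by edgeR), so its transcript did not separate the genotypes. A Cas9 cut need not lower the number of transcripts, and the Ago2 count therefore does not check the labels. The paper examined the knockout at the protein level, by Western blot of Ago2 in wild-type and ΔAgo2 LLC cells. Wild-type replicate 4 stood apart: 0.540% of its counts were mitochondrial against 2.39% to 4.51% in the other 7 libraries, and its median Spearman correlation with the other wild-type libraries was 0.864. Results that depend on this library are given with and without it. Of 6 markers listed for carcinoma (Krt8, Krt18, Krt19, Epcam, Cdh1 and Vim), Krt8, Krt18 and Vim were high in all libraries. Vim, which encodes vimentin and is not particular to carcinoma, was at least at 2217 TPM (transcripts scaled to gene length and library total). The epithelial surface markers Epcam and Cdh1 had at most 1 and 9 counts in a library. The fibroblast markers Pdgfra, Pdgfrb, Dcn and Lum together were at 4.97 to 30.7 TPM, so these markers alone do not set the cell type.

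Before the genotypes are compared, the ISGs can be ordered by level in TPM. Of the 40, 11 averaged at least 10 TPM over the 8 libraries, 13 averaged from 1 to 10, and 16 averaged under 1, of which 6 were under 0.1. The median ISG averaged 2.09 TPM, compared with 17.05 TPM for the 14228 tested genes. The Ifitm genes together held 82.5% of all TPM on the list. The order of neighbours is loose, since the ranges over 8 libraries overlapped for 36 of the 39 neighbouring pairs.

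**Figure D1:**
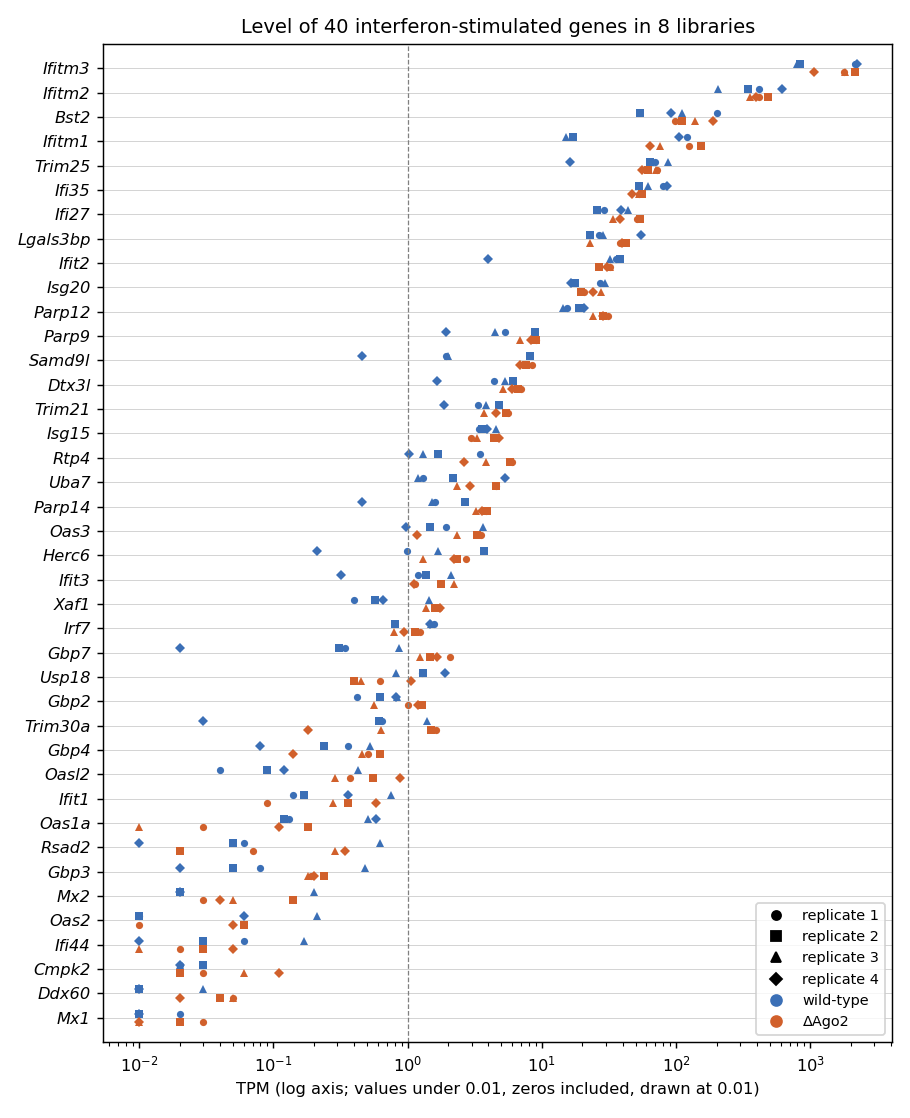
TPM of the 40 interferon-stimulated genes (log axis, genes ordered by mean) in each library, with color for genotype and marker shape for replicate number. Ifitm3 lies between 798 and 2209 TPM, 16 genes average under 1 TPM (dashed line), and wild-type and ΔAgo2 points intermix for most genes.

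The 5 ISGs with the highest mean TPM were Ifitm3, Ifitm2, Bst2, Ifitm1 and Trim25. The first 4 encode membrane proteins that restrict viruses: the Ifitm proteins hinder the fusion of virus and cell membranes, and Bst2 (tetherin) holds budding virions at the cell surface. Ifitm3 was at 2151, 842, 798 and 2209 TPM in wild-type replicates 1 to 4 and at 1782, 2132, 1818 and 1059 TPM in ΔAgo2 replicates 1 to 4. Ifitm2 was at 414, 340.1, 205 and 616 TPM in wild-type and at 413, 482, 355 and 395 TPM in ΔAgo2 libraries. The ΔAgo2 values of both genes lay inside the range of the wild-type values. Bst2 was at 201, 54.0, 111 and 91.2 TPM in wild-type and 98.0, 111, 138 and 188 TPM in ΔAgo2 libraries, again inside the wild-type range.

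Ifitm1 varied most among these genes. It was at 120, 17.2, 15.2 and 105 TPM in wild-type replicates 1 to 4, with replicates 1 and 4 far above replicates 2 and 3, and at 125, 154, 75.7 and 64.3 TPM in ΔAgo2 libraries. The log2 fold change of ΔAgo2 over wild-type, fitted by edgeR on counts scaled to library size with TMM factors (CPM when given as levels), was 0.29 (SE 0.73) for Ifitm1, -0.17 (SE 0.49) for Ifitm3, -0.28 (SE 0.43) for Ifitm2 and -0.02 (SE 0.44) for Bst2. None passed, with adjusted p from 0.883 to 0.994 (edgeR, Benjamini-Hochberg). Without wild-type replicate 4 the log2 fold changes of Ifitm2 and Ifitm3 were 0.31 and 0.33 and that of Ifitm1 was 0.90 (SE 0.73), so the direction of Ifitm2 and Ifitm3 depends on that library. TPM values are not scaled by TMM, and for Ifitm3 and Ifitm2 the mean TPM was higher in ΔAgo2 cells while the fitted log2 fold change over all 8 libraries was below 0. The Ifitm genes lie close together on chromosome 7 and are alike in sequence, so reads that match several of them are uncertain.

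Trim25, an E3 ligase that also acts with the RNA sensor RIG-I, was at 69.2, 64.0, 87.1 and 16.2 TPM in wild-type replicates 1 to 4 and at 72.0, 61.8, 70.2 and 56.0 TPM in ΔAgo2 libraries. Wild-type replicate 4 was lowest and the other 7 libraries overlapped. Its log2 fold change was 0.02 (SE 0.36) and, without wild-type replicate 4, -0.23 (SE 0.18).

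The main comparison asked whether the ISGs on the list, tested gene by gene, differ between ΔAgo2 and wild-type LLC cells in culture. Ifih1, which the paper also names as an ISG, was not on the list and is described below with the genes upstream of the ISGs. At an adjusted p under 0.05, 0 of 31 tested ISGs were called in either direction, against 42 of 14228 genes, or 0.295% (edgeR quasi-likelihood F test, p-values adjusted by Benjamini-Hochberg over all tested genes). DESeq2 called 0 of the 39 ISGs to which it gave an adjusted p (Mx1 had none), against 2.23% of 17926 genes. On simulated counts the edgeR fit called 100 of 200 genes changed by a log2 fold change of 2 in size. An ISG that was not called may therefore still differ. At an unadjusted p under 0.05, 3 ISGs were higher in ΔAgo2 cells (Gbp7, Parp14 and Rtp4, 9.68% of 31, against 2.72% of all tested genes) and 1 was lower (Usp18, 3.23%, against 4.62%). Without wild-type replicate 4, 0 of 32 tested ISGs were called against 0.777% of 14541 genes, while 4 were higher at an unadjusted p under 0.05 (Uba7, Gbp7, Parp12 and Parp14, 12.5% against 5.52%) and 0 were lower (7.04% of all genes). With DESeq2, 5 of 40 ISGs were higher at an unadjusted p under 0.05 (Oasl2, Gbp7, Parp14, Rtp4 and Samd9l, 12.5% against 2.08%) and 2 were lower (Usp18 and Oas1a, 5.0% against 4.4%).

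The 31 fitted log2 fold changes had a median of 0.22, and 21 of them (67.7%) were above 0, compared with a median of -0.11 and 41.2% above 0 over all tested genes. Without wild-type replicate 4 the ISG median was 0.21 with 22 of 32 (68.8%) above 0, compared with -0.04 and 45.8%. Leaving out wild-type replicate 2 brought the ISG median to 0.07 with 16 of 32 above 0, compared with -0.13 and 41.9% over all tested genes. Leaving out ΔAgo2 replicate 1 brought the ISG median to 0.13, compared with -0.13 over all tested genes. Library weights raised it to 0.36, compared with -0.004 over all tested genes. An ISG near the expression filter could pass it through the genotype in which it is higher, so these counts describe the ISGs that passed and are no measure of the whole list. The median log2 CPM of the 31 ISGs was 2.03, 2.28, 2.08 and 1.65 in wild-type replicates 1 to 4 and 3.03, 3.07, 2.29 and 2.55 in ΔAgo2 replicates 1 to 4. ΔAgo2 replicate 3 was thus barely above wild-type replicate 2, and the same median over all tested genes ran from 4.39 to 4.48 in 7 libraries and was 4.02 in wild-type replicate 4.

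**Figure D2:**
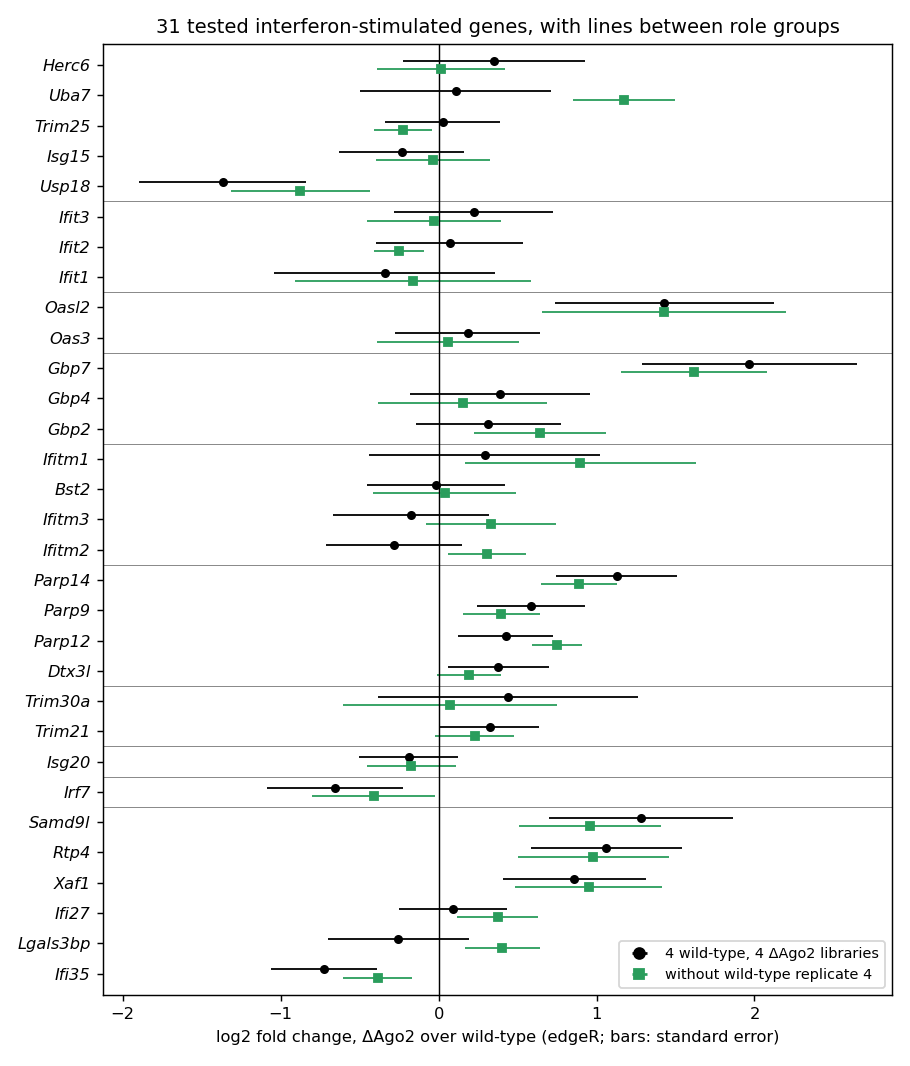
Log2 fold change of ΔAgo2 over wild-type for the 31 tested interferon-stimulated genes, with the standard error as bars, from edgeR over all 8 libraries (circles) and without wild-type replicate 4 (squares). Lines part the role groups, Gbp7 lies farthest to the right and Usp18 farthest to the left, and the fold changes of 7 genes change sign between the fits.

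Guanylate-binding proteins (GBPs) are large GTPases that coat and break up the vacuoles of intracellular pathogens. Gbp7 had the largest fitted difference among the 31 tested ISGs. Gbp7 (chromosome 3, 142530342 to 142550149) was at 0.610, 0.439, 1.41 and 0.0621 CPM in wild-type replicates 1 to 4 and at 3.09, 2.28, 2.03 and 2.63 CPM in ΔAgo2 replicates 1 to 4. Every ΔAgo2 library lay above every wild-type library. The fitted log2 fold change was 1.97 (SE 0.68, unadjusted p = 0.0154, adjusted p = 0.503 by edgeR) and 1.62 (SE 0.46, adjusted p = 0.194) without wild-type replicate 4. Of all alternatives, only library weights from voom brought Gbp7 past the threshold (adjusted p = 0.0462 by limma, log2 fold change 2.02, in a range of adjusted p from 0.0462 to 0.975 over 15 alternatives), and leaving out wild-type replicate 3 gave a log2 fold change of 2.72. Gbp2 and Gbp4 differed by less than their standard errors (log2 fold changes 0.32, SE 0.46, and 0.39, SE 0.57), and without wild-type replicate 4 they were at 0.64 (SE 0.42) and 0.15 (SE 0.53). Gbp3, which lies next to Gbp7, had 31 counts in wild-type replicate 3, 1 to 4 in the other wild-type libraries and 7 to 10 in ΔAgo2 libraries. Reads shared among GBP paralogs may have been split or dropped.

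By CPM, Gbp7 and Parp14 were the only tested ISGs whose groups did not overlap in all 8 libraries. That is 2 of 31 (6.45%), against 3.09% of all tested genes with ΔAgo2 above. None lay entirely below (2.98% of all tested genes). Without wild-type replicate 4 there were 4 (Uba7, Gbp7, Parp12 and Parp14), which is 12.5% against 6.15%, and again none lay entirely below (6.04%). By TPM the groups of Parp12 were also apart in all 8 libraries, at 14.3 to 20.5 in wild-type and 23.9 to 31.3 in ΔAgo2. The share of all tested genes was not taken by TPM.

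PARP proteins attach ADP-ribose to other proteins, and Parp9 forms a complex with the ubiquitin ligase Dtx3l. Parp14, Dtx3l and Parp9 lie next to each other on chromosome 16, between 35832874 and 35972605, and Parp12 lies on chromosome 6. Parp14 was at 4.86, 6.33, 4.15 and 1.92 CPM in wild-type replicates 1 to 4 and at 9.47, 9.95, 8.87 and 9.48 CPM in ΔAgo2 libraries. The ΔAgo2 libraries were close to each other and all above wild-type. The log2 fold change of Parp14 was 1.13 (SE 0.38, unadjusted p = 0.0139, adjusted p = 0.493 by edgeR) and 0.89 (SE 0.24, adjusted p = 0.171) without wild-type replicate 4.

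The other 3 genes of the group also had fold changes above 0 in all 16 settings tried. Parp9 had a log2 fold change of 0.59 (SE 0.34) and Dtx3l one of 0.38 (SE 0.32), which were 0.40 and 0.19 without wild-type replicate 4. Parp9 and Dtx3l overlap on opposite strands, where reads cannot be told apart if the counting ignored strand. Parp12, described here after its values were seen, was at 20.1, 19.3, 16.6 and 36.9 CPM in wild-type replicates 1 to 4 and at 33.2, 31.2, 28.2 and 32.1 CPM in ΔAgo2 libraries. By CPM, wild-type replicate 4 was the highest of all 8 and the other 3 wild-type libraries lay below every ΔAgo2 library. By TPM, which is not scaled by TMM, Parp12 was at 15.5, 18.9, 14.3 and 20.5 in wild-type replicates 1 to 4. In ΔAgo2 libraries it was at 31.3, 28.4, 23.9 and 28.4 TPM. On that scale every wild-type library, replicate 4 included, lay below every ΔAgo2 library. The log2 fold change of Parp12 was 0.43 (SE 0.30, adjusted p = 0.755) with wild-type replicate 4 and 0.75 (SE 0.16, unadjusted p = 0.00107, adjusted p = 0.0837) without it (edgeR, Benjamini-Hochberg).

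ISGylation attaches the ubiquitin-like protein Isg15 to targets: Uba7 activates it, Herc6 and Trim25 transfer it, and Usp18 removes it. Usp18 also binds the interferon receptor and dampens its signal. Usp18 was at 1.16, 0.921, 0.669 and 2.39 CPM in wild-type replicates 1 to 4 and at 0.456, 0.309, 0.368 and 0.832 CPM in ΔAgo2 replicates 1 to 4. ΔAgo2 replicate 4 lay above wild-type replicate 3, so the groups overlapped by that pair. Its log2 fold change was -1.37 (SE 0.53, unadjusted p = 0.0265, adjusted p = 0.590 by edgeR), the lowest of the 31 tested, and -0.88 (SE 0.44, unadjusted p = 0.0786) without wild-type replicate 4. It was below 0 in all 16 settings.

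The genes that build the ISG15 conjugate gave no common direction. Isg15 was at 3.39, 3.55, 4.56 and 3.92 TPM in wild-type and 2.97, 4.42, 3.30 and 4.75 TPM in ΔAgo2 libraries, with a log2 fold change of -0.23 (SE 0.40), or -0.03 without wild-type replicate 4. Isg15 is among the ISGs most strongly switched on by interferon in many cell types, and here its 8 values lay between 2.97 and 4.75 TPM. By CPM they ran more widely, from 0.554 in ΔAgo2 replicate 1 to 1.24 in wild-type replicate 4, on 28 to 63 counts. Uba7, described after its values were seen, was at 2.83, 3.73, 2.33 and 15.9 CPM in wild-type replicates 1 to 4 and at 8.12, 8.36, 4.63 and 5.52 CPM in ΔAgo2 libraries. Its log2 fold change of 0.11 (SE 0.61) with wild-type replicate 4 became 1.17 (SE 0.33, unadjusted p = 0.00569, adjusted p = 0.183 by edgeR) without that library, since replicate 4 alone lay above the ΔAgo2 values. Leaving out any of the other 3 wild-type replicates gave Uba7 a log2 fold change from -0.16 to -0.09. Herc6 was at 0.35 (SE 0.58) and 0.02 (SE 0.40) on the log2 fold change scale with and without wild-type replicate 4.

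OAS proteins make the second messenger that switches on RNase L, and Oasl2 is a family member. Oasl2 was at 0.0813, 0.142, 0.802 and 0.342 CPM in wild-type replicates 1 to 4 and at 0.619, 0.974, 0.539 and 1.59 CPM in ΔAgo2 libraries. Wild-type replicate 3 lay above 2 of the ΔAgo2 libraries and the other wild-type libraries lay below all of them. A log2 fold change of 1.43 (SE 0.69, adjusted p = 0.706 by edgeR) resulted, which ran from 1.05 without ΔAgo2 replicate 4 to 2.36 without wild-type replicate 3. Oas3 had a log2 fold change of 0.18 (SE 0.46). Oas1a and Oas2 did not pass the filter: Oas1a had 4, 4, 19 and 16 counts in wild-type and 1, 4, 0 and 3 counts in ΔAgo2 libraries, and DESeq2, which tests it, gave it an unadjusted p under 0.05.

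Samd9l, Rtp4 and Xaf1 had the largest fitted differences among the remaining tested ISGs. Samd9l, a brake on poxviruses and on cell growth, was at 3.38, 11.3, 3.15 and 1.12 CPM in wild-type replicates 1 to 4 and at 12.1, 11.3, 12.2 and 10.5 CPM in ΔAgo2 libraries. Only wild-type replicate 2 reached the ΔAgo2 values. Samd9l thus had a log2 fold change of 1.28 (SE 0.58, unadjusted p = 0.0518, adjusted p = 0.678 by edgeR), 2.16 without wild-type replicate 2 and 0.96 without wild-type replicate 4.

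Rtp4, known as a receptor-transporting protein with antiviral activity, was at 2.40, 0.921, 0.817 and 0.993 CPM in wild-type and at 3.35, 3.37, 2.40 and 1.59 CPM in ΔAgo2 libraries. Wild-type replicate 1 fell among the ΔAgo2 libraries and the other wild-type libraries lay below them. For Rtp4 the log2 fold change was 1.06 (SE 0.48, unadjusted p = 0.0489, adjusted p = 0.677 by edgeR), 1.56 without wild-type replicate 1 and 0.98 without wild-type replicate 4. Xaf1, which counters inhibitors of apoptosis, had a log2 fold change of 0.86 (SE 0.46), which was 0.95 without wild-type replicate 4.

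**Figure D3:**
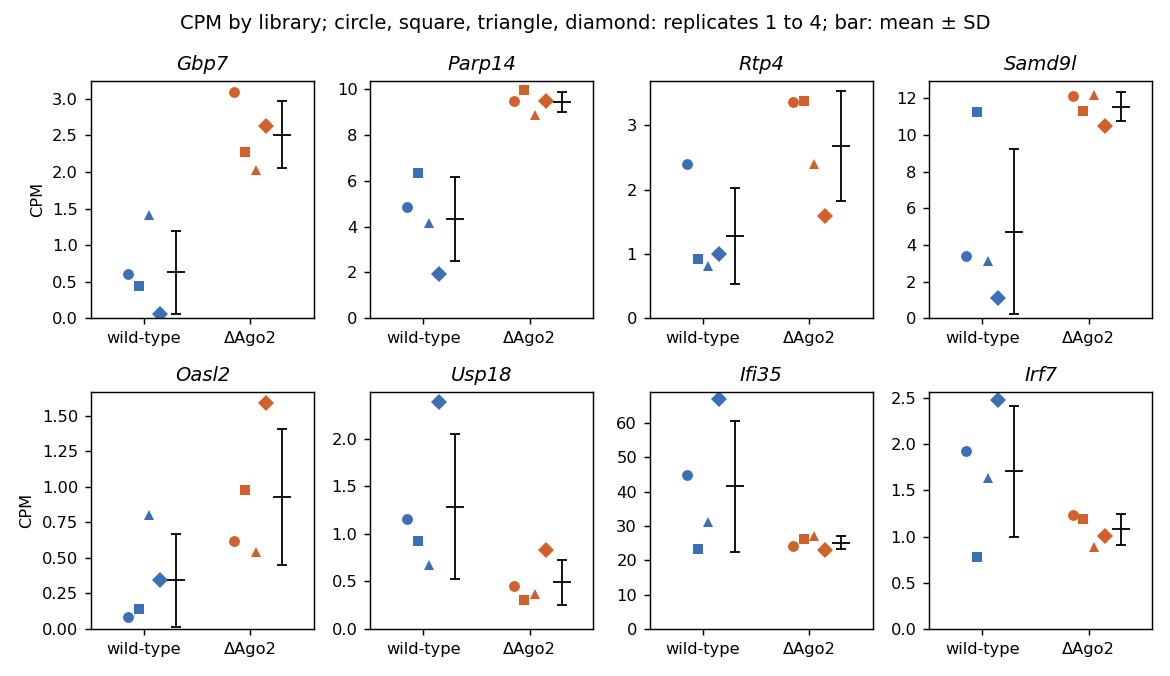
CPM in each library (points, marker shape for replicates 1 to 4) with the mean and SD of each genotype (bars, n = 4) for 8 interferon-stimulated genes, those most different by p on the higher (Gbp7 to Oasl2) and lower (Usp18 to Irf7) side in ΔAgo2 cells. Groups separate for Gbp7 and Parp14 and overlap for the other 6 genes.

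On the lower side, besides Usp18, stood Ifi35 and Irf7. Ifi35, an interferon-induced leucine zipper protein, was at 44.9, 23.3, 31.1 and 66.9 CPM in wild-type and at 24.2, 26.3, 27.1 and 22.9 CPM in ΔAgo2 libraries. Wild-type replicates 1, 3 and 4 exceeded all ΔAgo2 libraries and wild-type replicate 2 fell among them. This gave Ifi35 a log2 fold change of -0.73 (SE 0.34, unadjusted p = 0.0555, adjusted p = 0.678 by edgeR) and -0.38 (SE 0.22) without wild-type replicate 4.

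Irf7, the transcription factor that amplifies type I interferon production, was at 1.93, 0.779, 1.63 and 2.48 CPM in wild-type and 1.24, 1.19, 0.882 and 1.00 CPM in ΔAgo2 libraries. Wild-type replicate 2 was the lowest of the 8 and the other wild-type libraries were the highest. For Irf7 the log2 fold change was -0.66 (SE 0.43, adjusted p = 0.740 by edgeR), and -0.41 (SE 0.39) without wild-type replicate 4. Isg20, a nuclease that degrades RNA, was at 16.4, 8.35, 16.0 and 13.8 CPM in wild-type and 10.2, 9.95, 15.05 and 12.6 CPM in ΔAgo2 libraries, with a log2 fold change of -0.19 (SE 0.31) and overlapping groups.

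IFIT proteins bind viral RNA that lacks the host's cap marks. Ifit2, at a mean of 29.0 TPM, was far above Ifit3 (1.40 TPM) and Ifit1 (0.341 TPM), although the genes lie in 1 cluster on chromosome 19. Ifit2 was at 45.6, 38.2, 36.6 and 7.05 CPM in wild-type replicates 1 to 4 and 29.0 to 37.5 CPM in ΔAgo2 libraries, so wild-type replicate 4 alone stood apart. The log2 fold changes were 0.07 (SE 0.47) for Ifit2, 0.22 (SE 0.50) for Ifit3 and -0.34 (SE 0.70) for Ifit1, and without wild-type replicate 4 they were -0.25, -0.03 and -0.16. Trim21 had a log2 fold change of 0.32 (SE 0.31), and of 0.23 without wild-type replicate 4. Trim30a had one of 0.44 (SE 0.82), which was 0.07 without wild-type replicate 4 and 1.06 without wild-type replicate 3. Ifi27 had a log2 fold change of 0.09 (SE 0.34) and Lgals3bp one of -0.25 (SE 0.45), which was 0.40 (SE 0.24) without wild-type replicate 4.

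The ISGs were also read by whether their promoter window holds the ISRE core. The 15 ISGs with the core had a median of 0.995 TPM, with 8 under 1 TPM. The 16 without it had a median of 5.32 TPM, with 3 under 1 TPM. The ISGs highest in mean TPM, Ifitm3 (1599 TPM) and Ifitm2 (402 TPM), hold the core, and the highest mean without it was 84.4 TPM (Ifitm1). Among tested genes, 6 of 11 with the core had a log2 fold change above 0 (median 0.18) and 10 of 14 without it did (median 0.20). Without wild-type replicate 4 the medians were 0.07 and 0.30. These are descriptions of small lists and were not tested.

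The 9 ISGs under the filter were close to silent, with 5 to 104 counts each over all 8 libraries. Together they had 22, 19, 164 and 24 counts in replicates 1 to 4 of wild-type and 32, 31, 35 and 54 in ΔAgo2 replicates 1 to 4, or 2.44 CPM in wild-type replicate 3, with the other 7 libraries at 0.269 to 1.02 CPM. Wild-type replicate 3 was the highest library for 5 of the 9 (55.6%), compared with 20.4% of 7449 untested genes with summed counts in the same range. Rsad2 (viperin), which makes a nucleotide that stops viral polymerases, had 4, 4, 53 and 0 counts in the wild-type and 5, 1, 15 and 22 in the ΔAgo2 libraries. Oas2 had 18 counts, Mx2 14 and Ifi44 21 in wild-type replicate 3, against at most 4, 6 and 6 in any other library.

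Mx1, a dynamin-like GTPase that blocks influenza virus and is defective in the C57BL/6 strain from which LLC cells derive, had at most 2 counts in any library and was at or under the floor of 3 counts in all. Cmpk2, which neighbours Rsad2 and supplies its nucleotide substrate, had 1 to 7 counts, and Ddx60 had 0 to 7. None of the 9 was called by DESeq2 or by edgeR without a filter.

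**Figure D4:**
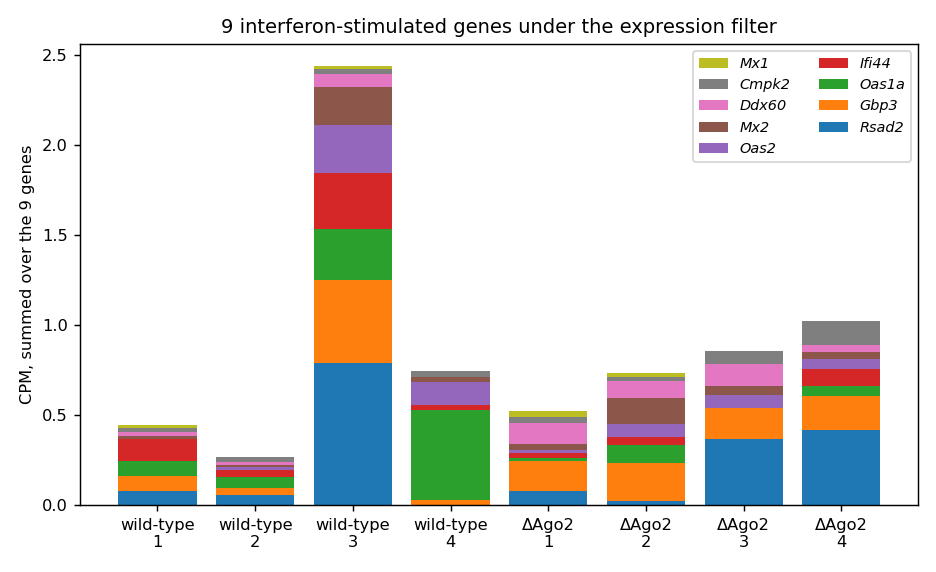
CPM summed over the 9 interferon-stimulated genes under the expression filter, stacked by gene, in each library. Wild-type replicate 3 reaches 2.44 CPM and the other 7 libraries stay at 1.02 CPM or below.

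Reads of leukocytes were looked for in the same libraries, since bulk RNA cannot tell apart fewer cells of a type from less RNA per cell. Of 7 leukocyte markers, Cd3e had 0 counts in every library, and Ptprc, which encodes the pan-leukocyte surface protein CD45, had at most 2. The sum of the 7 markers was 36, 44, 168 and 39 counts in replicates 1 to 4 of wild-type and 57, 44, 28 and 46 in ΔAgo2 libraries. Nearly all of these were Lyz2, the lysozyme of myeloid cells, with 163 counts in wild-type replicate 3 and 25 to 54 in the others. Without Lyz2 the markers summed to 0 to 11 counts, with 11 in wild-type replicate 1 and 5 in wild-type replicate 3. The markers other than Lyz2 were therefore not highest in wild-type replicate 3. Lyz2 was thus highest in the same library as the weakly read ISGs, and its part in that result was not tested.

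Wild-type replicate 4 was the lowest of the 8 libraries for 12 of the 31 tested ISGs (37.1% of all tested genes) and the highest for another 12 (35.4% of all tested genes). Its difference from the mean of the other wild-type libraries followed the GC content of the gene, with a Spearman correlation of 0.65 over the 31 ISGs and 0.74 over 14226 tested genes, a description across genes that share this library. GC content of the ISGs ran from 39.0% (Samd9l) to 56.9% (Bst2). Samd9l, Gbp7, Trim30a, Herc6 and Ifit2, all low in GC, were lowest in that library, and Uba7, Lgals3bp, Ifitm2 and Ifi35, high in GC, were highest. Among the ISGs at either end of the GC range, Bst2, Isg20 and Oas3, high in GC, were not highest in it and Ifit1, low in GC, was not lowest. With a correction for GC content 0 of the 31 ISGs were called, against 0.548% of all tested genes, and 23 of 31 had fold changes above 0, against 41.1% of all tested genes.

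**Figure D5:**
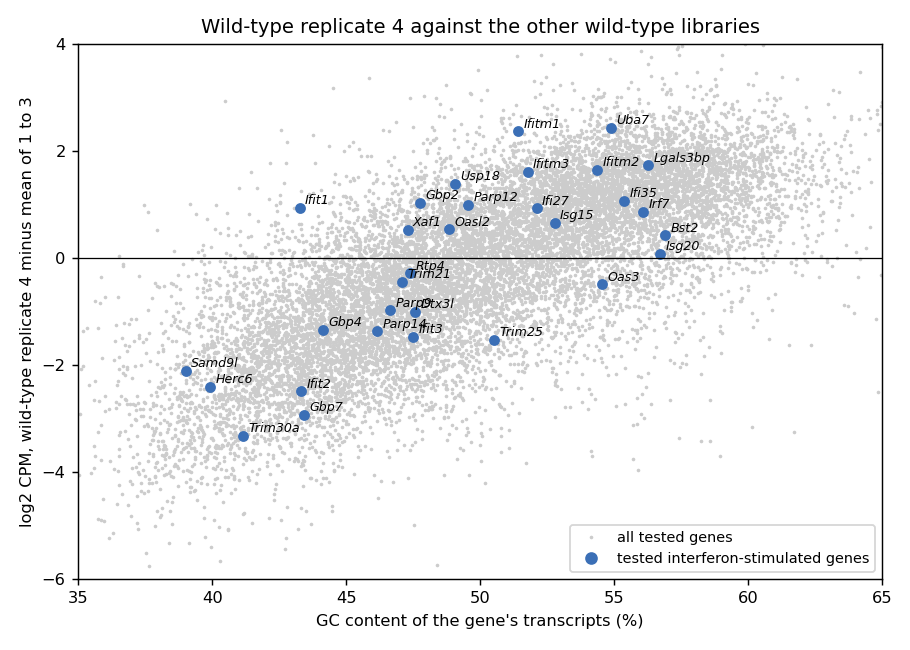
Log2 CPM of wild-type replicate 4 minus the mean of wild-type replicates 1 to 3, against the GC content of each gene's transcripts, for all tested genes (grey) and the 31 tested interferon-stimulated genes (blue). Points rise from left to right, with a Spearman correlation of 0.65 over the blue points.

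The spread between libraries was wider in wild-type than in ΔAgo2 cells. The SD of log2 CPM was larger in wild-type for 29 of the 31 ISGs (93.5%), and for 93.3% of all tested genes. Its median over the ISGs was 0.81 in wild-type, 0.55 in wild-type without replicate 4 and 0.33 in ΔAgo2, and over all tested genes 0.78, 0.43 and 0.23.

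Genes upstream of the ISGs were examined as a list of 52. Of 21 interferon genes, 15 had 0 counts in all libraries, and the 21 together had 34 counts over the 8 libraries. The largest count of an interferon gene in a library was 7, for Ifnz in wild-type replicate 4, and Ifnb1 had 1 count in all. The interferon transcripts were thus at or near the limit of detection, with 19 of 21 genes at 3 counts or fewer in every library. The receptor genes Ifnar1, Ifnar2, Ifngr1 and Ifngr2 were present at 13.5 to 41.9 TPM.

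Of the 52, 28 were tested and 0 were called (0.295% of all tested genes), with 2 higher and 0 lower at an unadjusted p under 0.05 (2.72% and 4.62% of all tested genes). In the fit without wild-type replicate 4, 1 of 28 was called (Ifih1, against 0.777% of all tested genes). At an unadjusted p under 0.05, 3 were then higher (Ifih1, Ikbke and Irf8, against 5.52%) and 1 was lower (Stat2, against 7.04%). The 2 that were higher with all libraries were the sensor Ifih1 (MDA5), which detects long double-stranded RNA, and Ikbke, a kinase that activates Irf3 and Irf7. Ifih1 was at 0.468, 0.241, 0.743 and 0.0310 CPM in wild-type and at 3.04, 3.04, 2.70 and 2.36 CPM in ΔAgo2 libraries, with every ΔAgo2 library above wild-type. Its log2 fold change was 2.87 (SE 0.67, adjusted p = 0.180 by edgeR), and 2.53 (SE 0.44, adjusted p = 0.0401) without wild-type replicate 4, which is past the threshold. Over the 15 alternatives its adjusted p ran from 0.000133 (DESeq2, the tool the paper names for its own gene tests) to 0.438. In 9 of these 15 Ifih1 was not called, and in the others it was called as higher in ΔAgo2 cells. The paper names Ifih1 itself among the ISGs that were raised in cultured ΔAgo2 cells. It was not on the ISG list used here, so the counts of called ISGs leave it out. Ikbke had a log2 fold change of 0.81 (SE 0.28, adjusted p = 0.505 by edgeR), and of 0.88 without wild-type replicate 4.

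Among the transducers of the interferon signal, Stat2 had a log2 fold change of -0.39 (SE 0.26) and was not called with or without wild-type replicate 4, and Irf9 was at 3.15 to 5.70 TPM in all libraries. Among 42 further ISGs outside the list of 40, 29 were tested and 0 were called, 15 had fold changes above 0 (against 41.2% of all tested genes) and 14 below, and their median was 0.01. With wild-type replicate 4 left out their median was 0.17 and 0 were called. By unadjusted p, 3 of them passed 0.05 as higher (Nmi, Irgm2 and Znfx1, against 5.52% of all tested genes) and 1 as lower (Tap1, against 7.04%). At an unadjusted p under 0.05, Nmi, a partner of Ifi35, was higher (log2 fold change 1.06, SE 0.41) and the antigen-processing genes Tap1 (-0.90, SE 0.32) and Psmb9 (-1.23, SE 0.53) were lower in ΔAgo2 cells, against 2.72% of all tested genes higher and 4.62% lower. Leaving out wild-type replicate 4 gave log2 fold changes of 1.03 (SE 0.41) for Nmi, -0.62 (SE 0.21) for Tap1 and -0.52 (SE 0.34) for Psmb9.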

How the data were processed

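RNA was sequenced from 4 wild-type and 4 ΔAgo2 LLC cultures with a stranded mRNA kit. Per the study's methods and processing notes, reads on ribosomal RNA were set aside, the rest were mapped to mm10 with STAR, and featureCounts counted them per gene. Counts were deposited as whole reads with no scaling, and TPM values were deposited for the same libraries. The annotation release and the strand setting of the counting are not given in the sources used here. Symbols, positions and GC content came from GENCODE vM21 of GRCm38, which lacked 93 of the identifiers.

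After filterByExpr and TMM scaling, 14228 genes entered the quasi-likelihood F test of edgeR 4.0.16 (R 4.3.3), with genotype as the sole term. P-values are two-sided and adjusted p-values are Benjamini-Hochberg over these genes. SE was derived from the fold change and its F. Log2 CPM used a prior count of 2. Alternatives were DESeq2 1.42.0, RLE factors, no filter, voom library weights (limma 3.58.1), the replicate number as a block, a loess correction for GC content, and each library left out. The scripts were tested on simulated counts of 14228 genes, with 200 genes changed by a log2 fold change of 2 in size. The main fit called 100 of the 200 and 5 unchanged genes. DESeq2 called 149 and 49, and the fit with the replicate block called 53 and 1.

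Values in every library are given for ISGs with an unadjusted p under 0.05, the 5 smallest p in each direction, the 5 highest mean TPM, and those that change sign without wild-type replicate 4 and exceed 0.5 in size. The ISGs, lists and this rule were chosen with earlier results of these data known. Of the pathway and further ISG lists, genes with an unadjusted p under 0.05, interferon and receptor genes and signal transducers are named, and the result for 1 of these is not reported here.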

Additional observations from a re-analysis of the deposited data

Results flagged for a closer look

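Among the 76 sets of 4 libraries examined, 2 held a library far from the other 3, by Dixon's ratio of the gap to the range, which chance alone passes in about 1 of 20 sets. Both were wild-type replicate 4. For Ifit2 its gap to the nearest library was 0.882 of the wild-type range (7.05 CPM against 36.6 to 45.6 CPM). For Dtx3l it was 0.874 (4.28 CPM against 8.15 to 8.94 CPM). Neither gene was called with or without that library.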

How the results depend on the processing

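Over all tested genes, 42 were called, and this count was 399 with DESeq2, 143 without a filter, 257 with library weights, 78 with the GC correction, 92 with the GC correction and block together, and 1 to 113 with a library left out. ISGs called numbered 0 in each direction, except for 1 higher (Gbp7) with library weights. ISGs higher at an unadjusted p under 0.05 numbered 3 (2.72% of all tested genes), 5 with DESeq2 (2.08%), 5 without a filter (2.12%), 8 with library weights (8.17%) and 2 to 4 with a library left out (1.5% to 5.52%). Those lower numbered 1 (4.62% of all tested genes), 2 with DESeq2 (4.4%), without a filter (4.98%) or with library weights (8.48%), and 0 to 3 with a library left out (3.24% to 8.37%). With a library left out, 2 to 6 ISGs lay wholly above wild-type (3.19% to 7.19% of all tested genes) and 0 to 2 wholly below (3.73% to 8.42%), and the ISG median log2 fold change ran from 0.07 to 0.33. The number lower was 0 without wild-type replicate 4 or any of ΔAgo2 replicates 1 to 3, 2 without wild-type replicate 3 and 3 without wild-type replicate 2.

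Deviations of same-numbered libraries had correlations of -0.14, -0.05, 0.38 and 0.03 for numbers 1 to 4, and only number 3 correlated best with its own. So few correlations cannot decide whether the numbers pair the samples. Adding a replicate block to the fit, 18 genes and 0 ISGs were called, and 5 ISGs (16.1% against 3.23% of all tested genes) were higher at an unadjusted p under 0.05.

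Of 570 gene values compared over 38 genes, 519 kept direction and call, and 44 in 14 genes took the other direction. Log2 fold changes that reversed were, with library weights, -0.21 for Trim25, -0.32 for Ifit2, -0.076 for Ifit3, 0.12 for Ifitm2, 0.10 for Ifitm3 and 0.36 for Lgals3bp. With the GC correction they were -0.034 for Ifit2, 0.052 for Ifitm2, 0.20 for Bst2 and 0.17 for Lgals3bp, and with the GC correction and block 0.13 for Ifitm2, 0.17 for Ifitm3, 0.40 for Bst2, 0.070 for Isg20 and 0.18 for Lgals3bp. With the block alone they were 0.11 for Ifitm3 and 0.15 for Bst2, and without a filter 0.016 for Bst2. With a library left out, the lowest and highest values were -0.16 and 1.17 for Uba7, -0.23 and 0.25 for Trim25, -0.78 and 0.21 for Ifit1, -0.25 and 0.30 for Ifit2, -0.046 and 0.57 for Ifit3, -0.014 and 0.57 for Oas3, -0.066 and 0.90 for Ifitm1, -0.53 and 0.31 for Ifitm2, -0.45 and 0.33 for Ifitm3, -0.31 and 0.38 for Bst2, -0.12 and 0.37 for Ifi27, -0.50 and 0.40 for Lgals3bp and -0.047 and 0.60 for Ago2. The cause was not tested. The 9 untested ISGs had 5 to 104 counts each over all libraries.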
